A study of Mus musculus with 40 samples.

Results

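The SLC25 genes examined here were the 44 genes of the table whose symbols begin with *Slc25a* and a number, without *Slc25a17*, *Slc25a20* and *Slc25a44*, out of 20295 genes counted. They were chosen by name and not by their values. Their expression was followed in brown adipose tissue (BAT) of 40 male mice housed at 29 °C, in 8 groups of 5. In the first cohort, mice 13 to 19 weeks old carried both the conditional *Gpr3* TTG allele and *Ucp1*-Cre (C-3BO), which drives *Gpr3*, a constitutively active Gs-coupled receptor, in brown and beige adipocytes. Their control littermates carried either the TTG allele without Cre or Cre without the TTG allele. In the second cohort, 15-week-old control littermates of a further *Gpr3* line received the β3-adrenergic agonist CL-316,243 (CL) at 1 mg/kg or saline every day for 9 days. In each cohort some groups stayed on chow and the others received high-fat diet (HFD, 60% of calories from fat) for 7 days, the injections having begun 2 days before the diet was changed. All groups were thus kept at the same warm temperature, and *Gpr3* was driven only in *Ucp1*-expressing cells whereas CL reached the whole animal.

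SLC25 proteins are small membrane proteins of nuclear origin, most of which sit in the inner mitochondrial membrane. They exchange or import what the matrix and the cytosol must share, including ADP and ATP, phosphate, citrate, malate, amino acids, nucleotides, iron and cofactors such as NAD, coenzyme A, folate and glutathione. UCP1, which lets protons leak through the inner membrane of brown adipocytes, belongs to the same family, and the Gs-coupled receptors raise cAMP to switch on its gene. In BAT the family therefore stands between fuel supply, lipid synthesis and heat production.

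Library totals lay between 849126 and 15260516 counts, and 3 counts, taken as the smallest level shown, corresponded to 0.206 to 3.01 CPM (counts scaled to a common library size), for counting error only. *Gpr3* read 266 to 463 CPM in chow C-3BO and 688 to 918 CPM in HFD C-3BO mice, and at most 0.744 CPM in control mice. In the injected cohort it read 9.15 CPM in chow CL mouse 3 and at most 1.18 CPM in all other mice. *Ucp1* was detected in every library, and all 8 markers of brown adipocytes were detected in each group. The summed markers reached 9850 to 13900 CPM in chow C-3BO mice against 4690 to 6570 CPM in chow control mice, and 17300 to 21200 CPM in HFD C-3BO mice against 5300 to 14000 CPM in HFD control mice. They reached 5940 to 13100 CPM in chow CL mice against 3780 to 5790 CPM with saline, and 12300 to 16300 CPM in HFD CL mice against 5100 to 6840 CPM with saline. Mouse 5 of the chow CL group stood apart, with *Ucp1* at 1640 CPM where the other 4 read 5940 to 8990 CPM. The 13 skeletal muscle markers summed to 1040 to 12300 CPM in chow control mice, 552 to 4840 CPM in chow C-3BO mice and 37.1 to 320 CPM in HFD control mice, and to 48.6 to 3240 CPM in chow saline against 52.7 to 222 CPM in chow CL mice. The 12 liver markers summed to 92.2 to 296 CPM in HFD saline and HFD CL mice and to 447 and 428 CPM in mice 4 and 5 of HFD C-3BO, but to at most 4.25 CPM elsewhere. Epididymis markers were found in the same libraries, at 9.02 to 61.9 CPM against at most 0.136 CPM elsewhere. The 5 macrophage markers in the table summed to 250 to 635 CPM in HFD saline mice, against 107 to 242 CPM in chow saline and 103 to 332 CPM in HFD CL mice. In bulk tissue, fewer cells of a type and less RNA per cell cannot be told apart.

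Windows of 300 bases around the annotated start sites (250 before, 50 after; RefSeq, GRCm38.p6) were found for 34 of the 44 genes. Those of *Slc25a34*, *Slc25a33*, *Slc25a16* and *Slc25a15* are shown because these 4 genes were higher in C-3BO and in CL mice on both diets, as described in what follows, and both treatments act through Gs and cAMP. *Slc25a51* and *Slc25a32* were also higher with each treatment on both diets, but no window was found for them. Capitals mark TGACG on either strand, the shorter form of the cAMP response element.
Slc25a34 (chr4:141623785-141624084, minus strand): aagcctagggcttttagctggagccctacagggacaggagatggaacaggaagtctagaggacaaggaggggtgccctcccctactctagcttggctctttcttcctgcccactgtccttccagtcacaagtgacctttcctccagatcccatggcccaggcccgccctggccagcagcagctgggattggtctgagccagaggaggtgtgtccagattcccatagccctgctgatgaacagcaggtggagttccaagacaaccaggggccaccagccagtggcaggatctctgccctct
Slc25a33 (chr4:149774218-149774517, minus strand): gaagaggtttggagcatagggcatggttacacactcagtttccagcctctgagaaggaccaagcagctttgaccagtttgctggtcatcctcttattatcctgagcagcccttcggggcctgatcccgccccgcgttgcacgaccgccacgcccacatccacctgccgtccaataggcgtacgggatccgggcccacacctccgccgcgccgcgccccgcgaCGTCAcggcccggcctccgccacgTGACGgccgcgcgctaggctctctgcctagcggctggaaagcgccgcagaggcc
Slc25a16 (chr10:62920383-62920682, plus strand): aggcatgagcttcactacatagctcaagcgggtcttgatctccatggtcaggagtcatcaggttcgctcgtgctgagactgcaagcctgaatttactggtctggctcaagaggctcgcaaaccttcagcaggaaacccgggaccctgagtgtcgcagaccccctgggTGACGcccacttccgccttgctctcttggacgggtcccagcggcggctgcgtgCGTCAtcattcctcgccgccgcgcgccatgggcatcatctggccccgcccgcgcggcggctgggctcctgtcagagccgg
Slc25a15, upstream start (chr8:22398572-22398871, minus strand): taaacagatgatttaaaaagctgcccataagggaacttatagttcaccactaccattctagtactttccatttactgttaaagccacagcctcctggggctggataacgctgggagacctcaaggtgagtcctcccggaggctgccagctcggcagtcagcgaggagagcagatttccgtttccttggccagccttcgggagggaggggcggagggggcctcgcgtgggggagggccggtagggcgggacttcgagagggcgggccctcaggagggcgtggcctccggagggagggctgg
Slc25a15, downstream start (chr8:22398228-22398527, minus strand): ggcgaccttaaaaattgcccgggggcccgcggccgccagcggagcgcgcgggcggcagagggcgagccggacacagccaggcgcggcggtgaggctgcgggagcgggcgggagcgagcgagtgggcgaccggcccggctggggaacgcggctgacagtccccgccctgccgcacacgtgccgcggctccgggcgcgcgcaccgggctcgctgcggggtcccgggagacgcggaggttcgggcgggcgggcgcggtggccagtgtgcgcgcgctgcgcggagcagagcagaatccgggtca

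The windows of *Slc25a33* and *Slc25a16* each held TGACG at 2 places, once in each direction, while those of *Slc25a34* and *Slc25a15* held none. TGACG occurred in 13 of the 44 windows of SLC25 genes (29.5%) and in 20.8% of all 32851 windows. The full cAMP response element TGACGTCA, which contains TGACG, was present in the windows of *Slc25a25* and *Slc25a36* and in 1.79% of all windows. On both strands, the element of estrogen-related receptors (TNAAGGTCA) and the DR1 direct repeat of nuclear receptors were in no SLC25 window and in 1.28% and 0.0396% of all windows. The NRF1 motif was in 2 SLC25 windows, of *Slc25a3* and *Slc25a31* (4.6% of all), and the sterol regulatory element (TCACNCCAC) was in that of *Slc25a18* (1.24% of all). Absence of a motif refers only to these letters in these windows.

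Of the 44 SLC25 genes, 38 had enough counts to be tested. The other 6 were near the limit of detection, with 127 counts over all libraries for *Slc25a2*, 111 for *Slc25a31*, 72 for *Slc25a43*, 38 for *Slc25a21*, 27 for *Slc25a41* and 3 for *Slc25a54*. The 44 genes together took 0.506% to 0.741% of the counts of a library. Per length, *Slc25a4*, the ADP/ATP carrier of muscle and heart, had the highest mean over all mice, at 561.6 CPM per kilobase of counted exon. Also among the highest were *Slc25a1*, the citrate carrier, at 395.1, *Slc25a3*, the phosphate carrier, at 229.4, and *Slc25a39*, which is needed for mitochondrial glutathione import, at 210.1 CPM per kilobase. Their order differed between groups. *Slc25a1* lay at 860.5 ± 88.86 CPM per kilobase (SD, n = 5) in chow CL mice, above *Slc25a4* at 532.8 ± 39.25 (SD, n = 5), but at 116.5 ± 40.15 (SD, n = 5) in HFD control mice, below *Slc25a39* at 171 ± 39.89 (SD, n = 5).

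**Figure D1:**
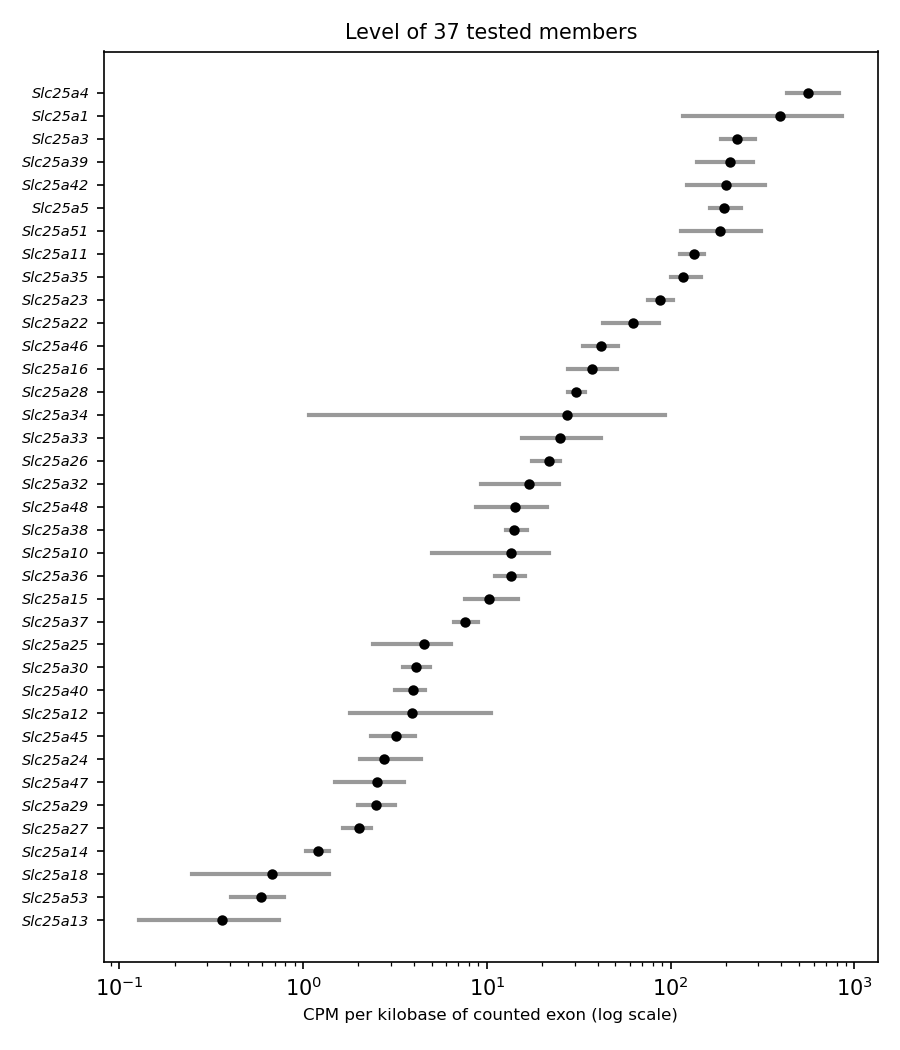
Mean level of 37 tested SLC25 genes over 40 mice (points), in CPM per kilobase of counted exon on a log axis. Grey bars run from the lowest to the highest of the 8 group means, and the bar of *Slc25a34* is the longest, from 1.075 to 93.34 CPM per kilobase.

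Treatment comparisons asked which carriers differ when BAT is activated through *Gpr3* or through the β3-adrenergic receptor. Each difference was tested by quasi-likelihood in edgeR, with Benjamini-Hochberg adjustment over 13277 genes, and a gene was called at an adjusted p under 0.05. In chow C-3BO mice 12 of the 38 tested genes were higher and 5 lower than in control mice, where 15.8% and 15.9% of all tested genes were called in these directions. On HFD, 11 were higher and 3 lower in C-3BO mice (19.3% and 15.5% of all genes). CL raised 11 genes and lowered 1 on chow (9.16% and 6.13% of all genes), and raised 8 and lowered 2 on HFD (12.7% and 10.8%). Beside these counts, 11 of 13 muscle markers were lower with CL on chow and 2 of 5 macrophage markers with CL on HFD, and 11 of 11 tested liver markers were higher in HFD C-3BO than in HFD control mice. Their part in the counts was not tested, other than with the muscle score and without mice 4 and 5 of HFD C-3BO. By the counts of calls, the share of higher genes in the family was above that of all genes in each of the 4 comparisons, and that of lower genes below it. For C-3BO on chow the lower shares were close, at 13.2% against 15.9%. No test of these differences was made. Median log2 fold changes were small, at 0.07, 0.14, 0.09 and 0.06 in this order, against -0.03, -0.02, -0.01 and -0.01 for all tested genes.

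Several genes were higher with each treatment. On chow, 7 SLC25 genes were higher in both C-3BO and CL mice, which is 58.3% of those higher in C-3BO and 63.6% of those higher with CL, compared with 33.5% and 57.6% over all tested genes. On HFD the 8 genes raised by CL were all higher in C-3BO mice (72.7% of the C-3BO list and 100% of the CL list), against 50.4% and 76.5% over all genes. These 2 cohorts share no control mice. In all 4 comparisons 6 genes were higher, namely *Slc25a34*, *Slc25a51*, *Slc25a33*, *Slc25a16*, *Slc25a32* and *Slc25a15*. In 3 comparisons *Slc25a39* and *Slc25a46* were higher and *Slc25a23* and *Slc25a47* were lower, 5 genes were called in 2 comparisons and 7 in 1, and 16 of the tested genes in none. The share of all tested genes called in as many comparisons was not determined, so these counts have no background beside them.

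The balance of directions depended on scaling. When libraries were scaled by their totals and not by TMM factors, the median of all tested genes shifted by -0.20 for C-3BO on chow, -0.17 for C-3BO on HFD, -0.14 for CL on chow and -0.14 for CL on HFD. The SLC25 genes then split into 8 higher and 11 lower, 9 and 7, 6 and 1, and 8 and 4. *Slc25a34*, *Slc25a33* and *Slc25a16* were still called higher in all 4 comparisons. Without mouse 5 of the chow CL group, CL raised 13 genes on chow and lowered 0 in edgeR, and *Slc25a23*, the 1 gene called lower with all mice, then had an adjusted p of 0.0565 (edgeR). With all mice 3 SLC25 genes were lower at an unadjusted p under 0.05, and DESeq2 called 1. Without mice 4 and 5 of HFD C-3BO, 8 genes were higher and 4 lower on HFD.

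**Figure D2:**
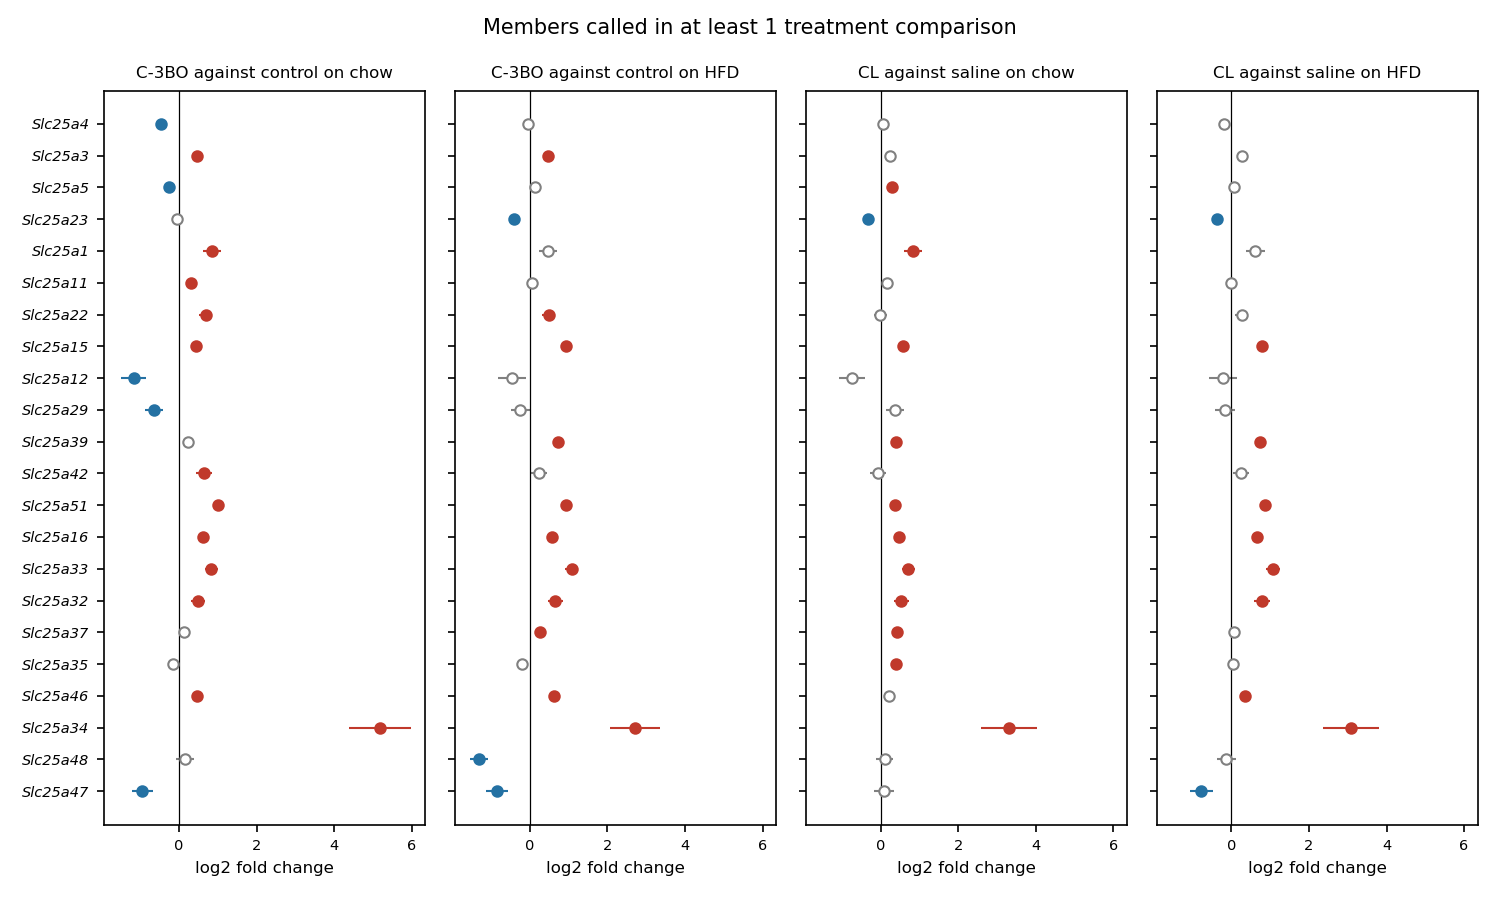
Log2 fold changes (points) with standard errors (bars) of the 22 SLC25 genes called in at least 1 treatment comparison, Red points were called higher, blue points lower, and open grey points were not called. *Slc25a34* lies farthest to the right in each panel, at 5.18, 2.72, 3.31 and 3.09.

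*Slc25a34*, an orphan carrier whose substrate is not settled, changed most. It lies at mm9 chromosome 4, bases 141174740 to 141179749 (minus strand, RefSeq NM_001013780). In chow control mice 1 to 5 it read 2.07, 3.14, 1.34, 4.93 and 2.93 CPM, and in chow C-3BO mice 151, 92.7, 118, 127 and 51.5 CPM. On HFD it read 7.77, 4.09, 88.4, 59.4 and 29.2 CPM in control mice and 198, 413, 220, 225 and 196 CPM in C-3BO mice. All C-3BO mice lay above all control mice of the same diet, and the HFD control mice fell into low and high animals. Mice 3, 4 and 5, the high ones, also had the highest *Ucp1* of their group, at 5250, 9440 and 4540 CPM against 2570 and 2700 CPM. The log2 fold change was 5.18 (SE 0.79, edgeR adjusted p = 4.73e-06), or 36.2-fold, on chow and 2.72 (SE 0.64, edgeR adjusted p = 0.00108), or 6.59-fold, on HFD. In an exact permutation test (two-sided) both differences had p = 0.00794, the smallest that 5 mice against 5 allow. The smaller difference on HFD was not called as an interaction (log2 difference -2.46, SE 0.98, edgeR adjusted p = 0.199).

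In the injected mice *Slc25a34* read 6.27, 3.79, 0.715, 1.22 and 14.3 CPM in chow saline mice 1 to 5 and 22.3, 12.1, 45.3, 177 and 6.91 CPM in chow CL mice. On HFD the values were 6.89, 22.4, 4.97, 5.01 and 24.3 CPM with saline and 188, 105, 64.8, 110 and 111 CPM with CL. The chow groups overlapped, since CL mice 2 and 5 lay below saline mouse 5, whereas the HFD groups were apart. The log2 fold change was 3.31 (SE 0.72, edgeR adjusted p = 0.00146) on chow and 3.09 (SE 0.72, edgeR adjusted p = 0.0016) on HFD. On chow the value rested much on CL mouse 4, without which the log2 fold change was 2.02 (edgeR adjusted p = 0.0415). HFD alone also raised *Slc25a34* in control mice, by 3.67 on the log2 scale (SE 0.78, edgeR adjusted p = 0.000317), with mouse 2 of HFD control below mouse 4 of chow control. In saline mice the diet difference was 1.34 (SE 0.78, edgeR adjusted p = 0.258).

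**Figure D3:**
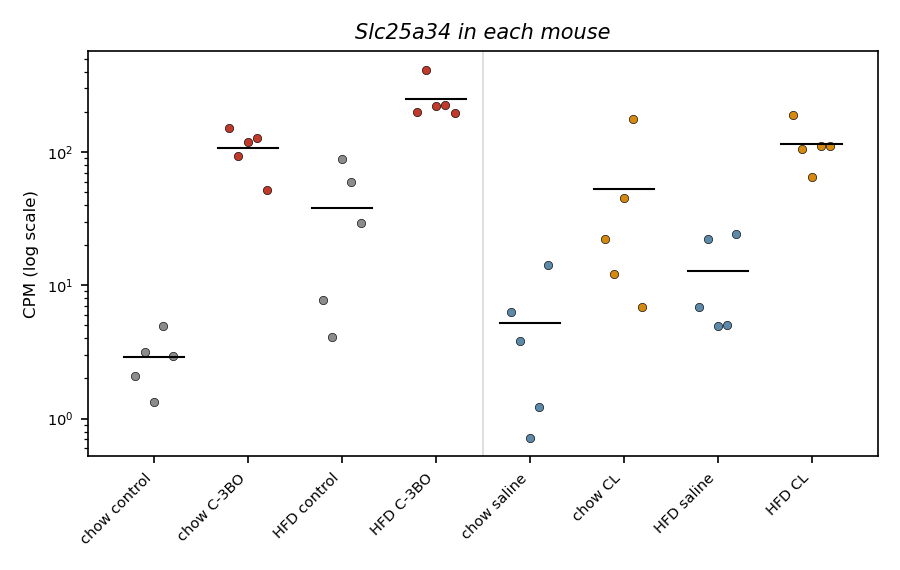
*Slc25a34* in each mouse, in CPM on a log axis. Points are mice 1 to 5 from left to right within a group and lines are group means. Chow control mice lie between 1.34 and 4.93 CPM and HFD C-3BO mice between 196 and 413 CPM.

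Carriers of cofactors and nucleotides formed the largest role. Of its 10 tested genes, 5 (50%) were higher and 0 lower in each of the 4 treatment comparisons in edgeR, where 15.8%, 19.3%, 9.16% and 12.7% of all genes were higher. The 4 genes higher in every one were *Slc25a51*, *Slc25a33*, *Slc25a16* and *Slc25a32*, joined by *Slc25a42* for C-3BO on chow and by *Slc25a39* in the other 3 comparisons. The median log2 fold change of the 10 genes was 0.35, 0.40, 0.39 and 0.46 for C-3BO on chow, C-3BO on HFD, CL on chow and CL on HFD. At an unadjusted p under 0.05, 1, 0, 0 and 1 genes of this role were lower, and DESeq2 called 1, 0, 0 and 0 lower.

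*Slc25a51*, the mitochondrial NAD carrier, lies at mm9 chromosome 4, bases 45408796 to 45421638 (minus strand, RefSeq NM_001009949). Its level was 499, 563, 560, 522 and 509 CPM in chow control mice and 1090, 956, 1030, 1090 and 1130 CPM in chow C-3BO mice. On HFD it was 565, 622, 839, 912 and 677 CPM in control mice and 1430, 1590, 1420, 1240 and 1190 CPM in C-3BO mice. Thus the *Gpr3* groups were apart on both diets, with log2 fold changes of 1.00 (SE 0.12, edgeR adjusted p = 1.34e-07) and 0.93 (SE 0.12, edgeR adjusted p = 2.96e-07). With CL on chow it read 828, 816, 1060, 984 and 540 CPM against 606, 601, 621, 687 and 739 CPM with saline, a difference of 0.38 (SE 0.12, edgeR adjusted p = 0.032). Here 4 CL mice exceeded all saline mice and mouse 5 lay below all of them, and without mouse 5 the value was 0.50 (SE 0.11, edgeR adjusted p = 0.00126). This call was lost under 9 of 18 alternatives, where the adjusted p ranged from 0.00126 to 0.15 in edgeR and DESeq2. On HFD, CL mice read 1020, 1040, 851, 877 and 820 CPM and saline mice 499, 523, 489, 472 and 535 CPM, and the groups were apart (0.87, SE 0.12, edgeR adjusted p = 2.18e-06). The C-3BO effect on chow exceeded the CL effect on chow by 0.62 (SE 0.17, edgeR adjusted p = 0.0265), and without CL mouse 5 this difference was no longer called (edgeR adjusted p = 0.0523). *Slc25a51* was higher on HFD than on chow in control and C-3BO mice (0.45 and 0.38) and lower in saline mice (-0.37), each called in edgeR, but the last was -0.19 (edgeR adjusted p = 0.238) with library totals alone.

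*Slc25a33*, which carries pyrimidine nucleotides, read 30.6, 26.8, 40, 32.2 and 30.7 CPM in chow control mice and 58.3, 46.4, 62.8, 61.2 and 57.1 CPM in chow C-3BO mice. On HFD it read 24, 24.5, 46.3, 52.5 and 38.3 CPM in control mice and 67.2, 73.8, 90, 86.2 and 75 CPM in C-3BO mice. The genotypes were apart on both diets, and the 3 HFD control mice with high *Ucp1* were again the high ones. Log2 fold changes were 0.83 (SE 0.17, edgeR adjusted p = 0.000226) on chow and 1.08 (SE 0.17, edgeR adjusted p = 3.97e-06) on HFD. With CL on HFD all mice lay between 60.5 and 68.3 CPM, above the 25.2 to 35.6 CPM of saline mice (1.08, SE 0.18, edgeR adjusted p = 2.27e-05). On chow, CL mouse 5 at 31.8 CPM fell within the saline range of 21.3 to 38.1 CPM while the other CL mice read 47 to 55.3 CPM (0.71, SE 0.17, edgeR adjusted p = 0.00329). In the mm9 annotation 14.9% of the exon bases of *Slc25a33* are shared with *Gm13068* on the other strand, and reads of the 2 cannot be told apart without strand. The gene lies at mm9 chromosome 4, bases 149118145 to 149148376 (minus strand, RefSeq NM_027460).

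*Slc25a16*, linked to coenzyme A supply of the matrix, had narrow groups. Chow control mice read 85, 89.2, 87.5, 81.8 and 88.5 CPM and chow C-3BO mice 133, 117, 137, 143 and 134 CPM. With saline on chow the values were 90.4, 101, 81.4, 94.5 and 98.8 CPM, and with CL 128, 144, 134, 146 and 102 CPM. The groups were apart in all 4 treatment comparisons, with log2 fold changes between 0.49 (SE 0.10, edgeR adjusted p = 0.00098, CL on chow) and 0.66 (SE 0.11, edgeR adjusted p = 1.34e-05, CL on HFD). On HFD, saline mouse 5 read 138 CPM where the other saline mice read 87.2 to 95.4 CPM, and CL mice read 140 to 172 CPM. *Slc25a16* lies at mm9 chromosome 10, bases 62383381 to 62409242 (plus strand, RefSeq NM_175194).

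*Slc25a32*, the folate and FAD carrier, rose with treatment and was called lower on HFD in all but CL mice. Chow control mice read 43.8 to 58.7 CPM, chow C-3BO mice 65.5 to 94.6 CPM, HFD control mice 21.3 to 38.1 CPM and HFD C-3BO mice 28.1 to 71.7 CPM. The genotypes were apart on chow but overlapped on HFD. Log2 fold changes were 0.48 (SE 0.19, edgeR adjusted p = 0.0468) and 0.65 (SE 0.19, edgeR adjusted p = 0.00842). The first call was lost under 10 of 18 alternatives, where the adjusted p ranged from 0.00863 to 0.209 in edgeR and DESeq2. Without mice 4 and 5 of HFD C-3BO the second was 0.43 (edgeR adjusted p = 0.106). CL gave 0.54 on chow (SE 0.19, edgeR adjusted p = 0.0471), a call lost under 13 of 18 alternatives, and 0.79 on HFD (SE 0.20, edgeR adjusted p = 0.00376). HFD lowered *Slc25a32* in control, C-3BO and saline mice, where it fell by 0.93, by 0.76 and by 0.65 on the log2 scale (edgeR adjusted p = 0.000233, 0.0032 and 0.0229). The saline call was lost with library totals alone (-0.48, edgeR adjusted p = 0.0694). CL mice read 59 to 77.4 CPM on chow and 35.8 to 67.8 CPM on HFD, and *Slc25a32* was not called lower there.

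*Slc25a39* read 213, 229, 313, 376 and 291 CPM in HFD control mice and 433, 483, 447, 493 and 483 CPM in HFD C-3BO mice. With CL on HFD it read 398, 366, 416, 379 and 372 CPM against 251, 233, 229, 211 and 234 CPM with saline. Both pairs of groups were apart, at log2 fold changes of 0.72 (SE 0.12, edgeR adjusted p = 1.29e-05) and 0.74 (SE 0.12, edgeR adjusted p = 2.22e-05). On chow the CL effect was 0.39 (SE 0.12, edgeR adjusted p = 0.0214), with CL mouse 5 at 278 CPM below the 388 to 429 CPM of the others. This call was lost under 6 of 18 alternatives, among them library totals alone (0.26, edgeR adjusted p = 0.0672). The C-3BO difference on chow was 0.23 (SE 0.12, edgeR adjusted p = 0.151).

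The amino acid carriers held 7 tested genes. In C-3BO mice 2 were called higher and 2 lower on chow (15.8% and 15.9% of all genes), and 2 and 0 on HFD (19.3% and 15.5%). With CL 1 was called higher and 0 lower on each diet in edgeR (9.16% and 6.13% of all genes on chow, 12.7% and 10.8% on HFD). *Slc25a15*, the ornithine carrier of the urea cycle, was the member that rose in all 4 comparisons. It read 27, 27.5, 30.2, 26.7 and 27.7 CPM in chow control mice and 33.8, 36.2, 36.7, 43.3 and 37.9 CPM in chow C-3BO mice. On HFD it read 26.1, 23.7, 27, 33.5 and 23.5 CPM in control and 46.8, 51.2, 47.8, 61.1 and 49.4 CPM in C-3BO mice. Its groups were apart in every treatment comparison, with log2 fold changes of 0.44 and 0.93 for C-3BO and 0.57 and 0.79 for CL on chow and HFD. Their SE was 0.12 in each case, and the edgeR adjusted p was 0.00411, 8.36e-08, 0.000627 and 8.29e-06. The exact permutation test (two-sided) gave p = 0.00794 in all 4. With library totals alone the first was 0.24 (edgeR adjusted p = 0.0689). *Slc25a15* lies at mm9 chromosome 8, bases 23486022 to 23509093 (minus strand, RefSeq NM_181325).

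**Figure D4:**
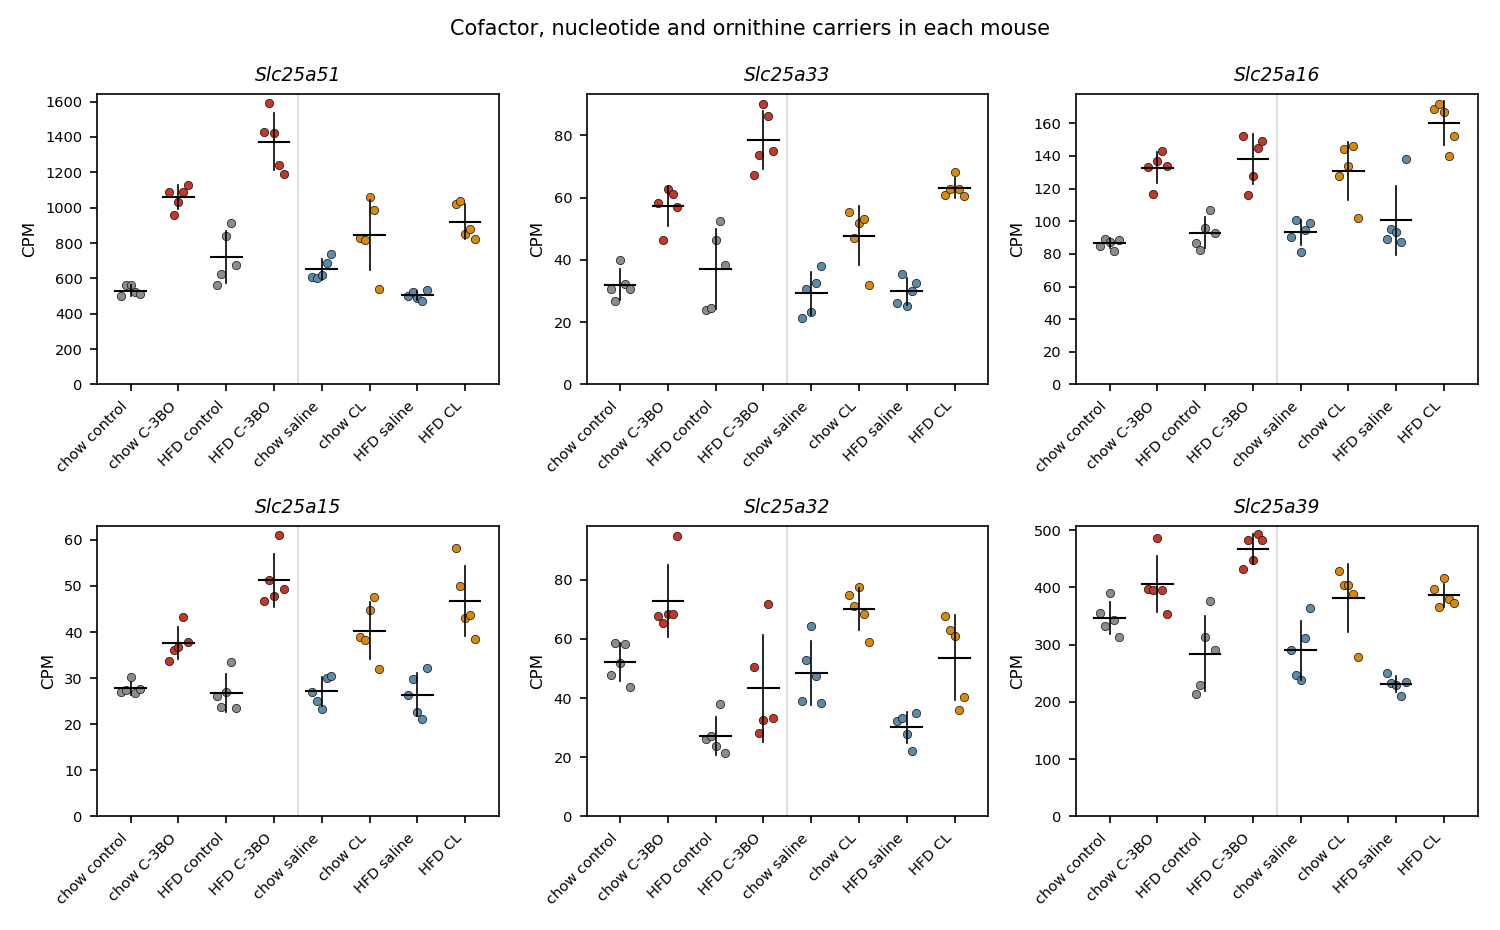
Levels of 6 carriers in each mouse, in CPM. Points are mice 1 to 5 from left to right, lines are group means and bars are SD. Chow CL mouse 5 is the lowest of its group in all 6 panels, at 540 CPM for *Slc25a51* and 31.9 CPM for *Slc25a15*.

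*Slc25a12*, the calcium-binding aspartate/glutamate carrier of the malate-aspartate shuttle that is abundant in muscle, was lower in chow C-3BO mice. It read 6.53, 21.9, 39.3, 47.9 and 37.5 CPM in chow control mice, 6.33, 20.3, 10.2, 11.1 and 20 CPM in chow C-3BO mice and 8.49, 8.8, 8.1, 7.32 and 9.66 CPM in HFD control mice. Chow control mouse 1 lay within the range of the C-3BO mice. The log2 fold change was -1.17 for C-3BO on chow (SE 0.32, edgeR adjusted p = 0.00498; exact permutation test, two-sided, p = 0.103) and -1.86 for HFD in control mice (SE 0.33, edgeR adjusted p = 2.74e-05). The summed muscle markers moved with it, at 1040, 5840, 12300, 11500 and 9080 CPM in chow control mice 1 to 5, and the chow CL mice, with 52.7 to 222 CPM of muscle markers, held *Slc25a12* at 4.98 to 5.55 CPM. With a muscle score as a covariate the C-3BO difference was -0.71 (SE 0.23, edgeR adjusted p = 0.0185) and the diet difference -0.02 (SE 0.38, edgeR adjusted p = 0.987). Muscle markers did not overlap between chow and HFD control mice (1040 to 12300 against 37.1 to 320 CPM). Diet and muscle content therefore cannot be told apart in control mice, with or without the score. With the libraries of the comparison alone the C-3BO call was lost (edgeR adjusted p = 0.0625).

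Of the ADP/ATP carriers, *Slc25a4* read 781, 782, 1170, 983 and 855 CPM in chow control mice and 623, 700, 755, 583 and 673 CPM in chow C-3BO mice, and the groups were apart (-0.46, SE 0.10, edgeR adjusted p = 0.00064). With the muscle score it was -0.37 (SE 0.09, edgeR adjusted p = 0.00196). HFD control mice, with few muscle transcripts, read 568 to 669 CPM (-0.57 against chow, SE 0.10, edgeR adjusted p = 2.7e-05), which became -0.24 (SE 0.13, edgeR adjusted p = 0.239) with the score. Here too diet and muscle content cannot be told apart, since the muscle markers of chow and HFD control mice did not overlap. *Slc25a5*, the ADP/ATP carrier of most other tissues, differed between the treatments on chow, falling by 0.25 on the log2 scale in C-3BO mice (SE 0.09, edgeR adjusted p = 0.024) and rising by 0.30 with CL (SE 0.09, edgeR adjusted p = 0.013). The C-3BO call was lost under 5 and the CL call under 3 of 18 alternatives each, with adjusted p up to 0.113 and 0.0948. The difference of these effects was -0.55 (SE 0.12, edgeR adjusted p = 0.00425) and stayed called under all 28 alternatives. That of *Slc25a4* was -0.52 (SE 0.14, edgeR adjusted p = 0.0233), a call lost under 8 of 28 alternatives, with an adjusted p up to 0.0795. The phosphate carrier *Slc25a3* was higher in C-3BO mice by 0.46 on each diet (SE 0.11 for both, edgeR adjusted p = 0.0016 on chow and 0.00135 on HFD), with control mouse 3 on chow at 410 CPM and control mouse 4 on HFD at 361 CPM reaching into the C-3BO range.

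The citrate carrier *Slc25a1*, which exports the carbon for fatty acid synthesis, fell with HFD in all 4 diet comparisons. It read 734, 683, 929, 686 and 575 CPM in chow control mice and 157, 171, 158, 315 and 176 CPM in HFD control mice. In C-3BO mice it read 1100, 1270, 1770, 888 and 1460 CPM on chow and 262, 173, 232, 350 and 333 CPM on HFD. Chow and HFD were apart in control, C-3BO, saline and CL mice, with log2 fold changes of -1.88 (SE 0.24, edgeR adjusted p = 2.46e-07), -2.27 (SE 0.25, edgeR adjusted p = 2.24e-08), -1.87 (SE 0.24, edgeR adjusted p = 2.84e-06) and -2.08 (SE 0.24, edgeR adjusted p = 1.75e-07). Both treatments raised it on chow, C-3BO by 0.85 (SE 0.24, edgeR adjusted p = 0.00572) and CL by 0.83 (SE 0.24, edgeR adjusted p = 0.0137). Chow saline mice read 867, 310, 806, 1230 and 843 CPM and chow CL mice 1420, 1630, 1380, 1240 and 1540 CPM, and without saline mouse 2 the CL effect was 0.61 (SE 0.21, edgeR adjusted p = 0.0558). It was also not called with the libraries of the comparison alone (edgeR adjusted p = 0.0602). On HFD the values were 0.46 for C-3BO (SE 0.24, edgeR adjusted p = 0.126) and 0.62 for CL (SE 0.24, edgeR adjusted p = 0.0558). The gene lies at mm9 chromosome 16, bases 17925304 to 17928312 (minus strand, RefSeq NM_153150).

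*Slc25a10*, the dicarboxylate carrier for malate and succinate, was named after its values were seen. It was lower on HFD in all 4 settings, with group means of 69.1 ± 17.3 CPM (SD, n = 5) in chow control, 20 ± 3.95 CPM in HFD control, 56.4 ± 26.4 CPM in chow C-3BO and 22.5 ± 4.66 CPM in HFD C-3BO mice. Its log2 fold change lay between -1.78 (SE 0.25, edgeR adjusted p = 1.06e-06) in control and -0.82 (SE 0.25, edgeR adjusted p = 0.0136) in CL mice. It was called in none of the treatment comparisons. *Slc25a42*, a carrier of coenzyme A, moved the other way with diet in control, C-3BO and CL mice. In saline mice it was not called, but it was with library totals alone (0.72, SE 0.21, edgeR adjusted p = 0.0128). It read 384, 345, 292, 432 and 497 CPM in chow control and 715, 716, 1150, 895 and 936 CPM in HFD control mice, which were apart (1.18, SE 0.21, edgeR adjusted p = 3.13e-05). It was also higher on HFD in C-3BO mice (0.76, SE 0.21, edgeR adjusted p = 0.00595) and CL mice (0.87, SE 0.21, edgeR adjusted p = 0.002), and higher in C-3BO than in control mice on chow (0.65, SE 0.21, edgeR adjusted p = 0.0148), the last lost with library totals alone (0.46, edgeR adjusted p = 0.0781).

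**Figure D5:**
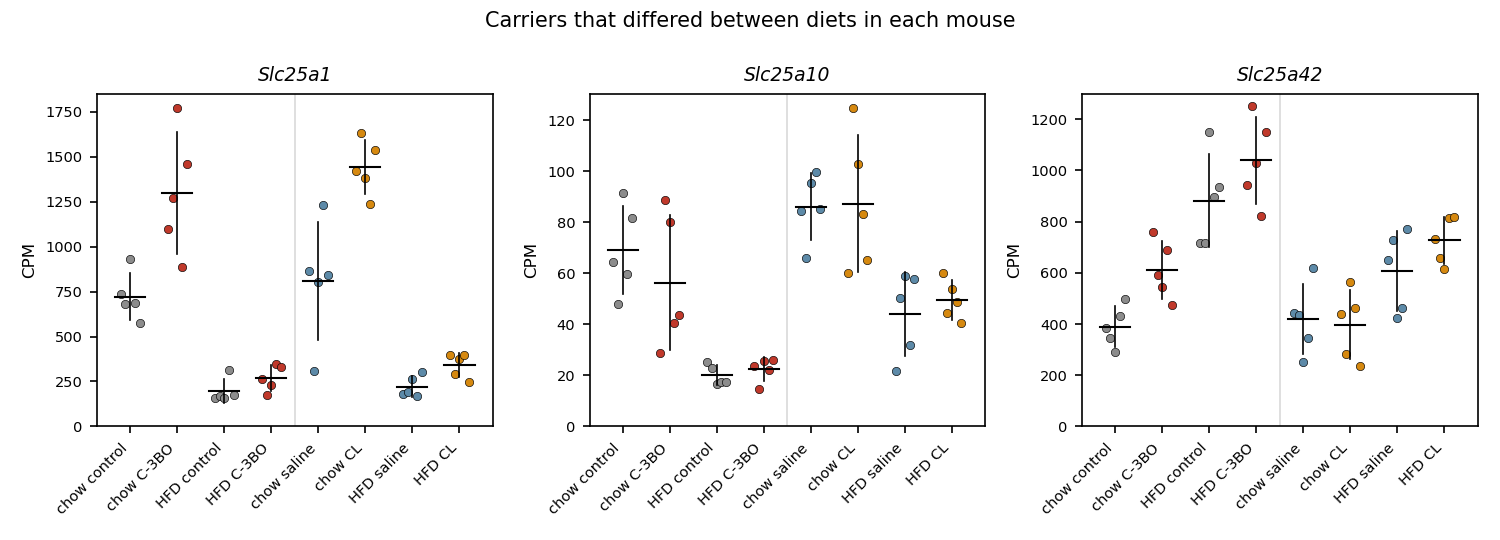
Levels of *Slc25a1*, *Slc25a10* and *Slc25a42* in each mouse, in CPM. Points are mice 1 to 5 from left to right, lines are group means and bars are SD. *Slc25a1* lies between 157 and 399 CPM in HFD mice and between 310 and 1770 CPM in chow mice.

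Over the tested genes, HFD raised 7 and lowered 7 in control mice (15.4% and 17.5% of all genes were called), raised 6 and lowered 6 in C-3BO mice (13.5% and 12.2%), raised 1 and lowered 5 in saline mice (7.45% and 8.04%), and raised 5 and lowered 7 in CL mice (10.9% and 12.7%). No direction prevailed over the 4 diet comparisons. With library totals alone the split was 10 and 7, 11 and 5, 9 and 3, and 9 and 5, the median of all genes shifting by 0.15, 0.18, 0.17 and 0.17. Summed muscle markers did not overlap between chow and HFD in control mice (1040 to 12300 against 37.1 to 320 CPM). The same held in C-3BO mice (552 to 4840 against 53.6 to 133 CPM). Diet and muscle content therefore cannot be told apart in the counts of these 2 settings. In the injected mice, diet cannot be told apart from the libraries that hold liver and epididymis transcripts, which were all those on HFD. All 5 macrophage markers were also higher on HFD in saline mice. *Slc25a13*, the aspartate/glutamate carrier of liver, was higher on HFD in CL mice (2.30, SE 0.59, edgeR adjusted p = 0.00403) and in C-3BO mice (1.88, SE 0.66, edgeR adjusted p = 0.033). Saline mice read 0.432 to 0.715 CPM on chow and 0.953 to 3.01 CPM on HFD, which were apart but not called in edgeR. In HFD C-3BO mice it read 0.408, 0.564, 0.122, 4.28 and 2.66 CPM, so the 2 high mice were those with liver transcripts, and without them the difference was -0.06 (edgeR adjusted p = 0.97). *Slc25a18*, a glutamate carrier, was lower on HFD in saline (-1.75) and CL mice (-2.31) at 0 to 3.15 CPM. *Slc25a25*, an ATP-Mg/phosphate carrier, was higher on HFD in control mice by 1.10 (SE 0.40, edgeR adjusted p = 0.0329). These 3 were named after their values were seen.

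*Slc25a48*, a carrier linked to choline, was the 1 gene that edgeR called for a C-3BO effect that differed between diets. It read 22.2, 23.3, 10.1, 24.9 and 26.1 CPM in chow control and 19.7, 22.5, 26.5, 18.5 and 31.8 CPM in chow C-3BO mice. On HFD it read 28.7, 29.6, 22.8, 42.1 and 35.9 CPM in control and 13.3, 7, 9.66, 16.5 and 18.8 CPM in C-3BO mice. The genotypes overlapped on chow and were apart on HFD, where the log2 fold change was -1.32 (SE 0.24, edgeR adjusted p = 3.76e-05), against 0.16 (SE 0.23, edgeR adjusted p = 0.64) on chow. The difference of the effects was -1.47 (SE 0.33, edgeR adjusted p = 0.00929), and it remained called under all 29 alternatives. Of all genes, 1.36% had a higher and 0.731% a lower C-3BO effect on HFD. At an unadjusted p under 0.05 there were 9 SLC25 genes (3 of them lower) and 2026 genes of all (827 of them lower). DESeq2 called 2 SLC25 genes and 457 genes of all. With CL on HFD, *Slc25a48* differed by -0.13 (SE 0.25, edgeR adjusted p = 0.755). It lies at mm9 chromosome 13, bases 56539716 to 56573724 (plus strand, RefSeq NM_177809).

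No SLC25 gene was called for a CL effect that differed between diets, where 0.0151% of all genes were called higher and 0% lower in edgeR. At an unadjusted p under 0.05 there were 4 SLC25 genes (3 of them lower) and 1250 genes of all (691 of them lower). DESeq2 called 0 SLC25 genes and 36 genes of all (19 of them lower). For C-3BO against CL on chow, 1 gene was higher (*Slc25a51*) and 3 were lower (*Slc25a4*, *Slc25a5* and *Slc25a35*), next to 2.83% and 3.4% of all genes. On HFD, edgeR called none of the SLC25 genes for this difference (0.753% and 1.05% of all genes), DESeq2 called 1, and 2 had an unadjusted p under 0.05. *Slc25a35*, an orphan carrier, read 208, 188, 175, 216 and 208 CPM in chow saline and 301, 291, 249, 267 and 211 CPM in chow CL mice (0.41, SE 0.11, edgeR adjusted p = 0.0115), and its C-3BO effect was lower than its CL effect by a log2 difference of -0.57 (SE 0.16, edgeR adjusted p = 0.0259). The first call was lost without saline mouse 3 (edgeR adjusted p = 0.0536), and the second under 6 of 28 alternatives, with an adjusted p up to 0.0636. *Slc25a35* shares 31.3% of its exon bases with *Rangrf* on the other strand, so that its counts may hold reads of that gene.

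Among the remaining orphan and outer-membrane members, *Slc25a46*, which acts in outer-membrane dynamics, rose in C-3BO mice from 165 ± 8.14 to 227 ± 15.2 CPM (SD, n = 5) on chow and from 146 ± 17.1 to 226 ± 16.6 CPM (SD, n = 5) on HFD. The log2 fold changes were 0.46 (SE 0.09, edgeR adjusted p = 0.000132) and 0.62 (SE 0.09, edgeR adjusted p = 1.05e-06), with groups apart on both diets. CL raised it by 0.36 on HFD (SE 0.09, edgeR adjusted p = 0.00373), where saline mouse 5 at 194 CPM lay within the CL range. *Slc25a46* shares 10.5% of its exon bases with *B930094E09Rik* on the other strand. *Slc25a47*, an orphan carrier known from liver, was low at 1.5 to 8.54 CPM and lower in C-3BO mice by -0.95 on chow (SE 0.28, edgeR adjusted p = 0.00932) and -0.84 on HFD (SE 0.28, edgeR adjusted p = 0.0175), with overlapping groups. The HFD call was lost without HFD C-3BO mouse 3 (edgeR adjusted p = 0.0586). For CL on HFD it was -0.77 (SE 0.29, edgeR adjusted p = 0.0465), a call lost under 7 of 17 alternatives. The ATP-Mg/phosphate carrier *Slc25a23* read 322 to 363 CPM in HFD control and 220 to 286 CPM in HFD C-3BO mice, which were apart (-0.42, SE 0.10, edgeR adjusted p = 0.00119). It was also lower with CL, by -0.33 on chow (SE 0.10, edgeR adjusted p = 0.0204) and -0.37 on HFD (SE 0.10, edgeR adjusted p = 0.007), the chow call being lost under 3 of 18 alternatives.

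The roles not yet described were small, with 3 tested relatives of the uncoupling proteins and 2 tested iron carriers. In each direction of a treatment or diet comparison, 6.13% to 19.3% of all genes were called. The 3 tested relatives of the uncoupling proteins, *Slc25a14*, *Slc25a27* and *Slc25a30*, were called in none of the treatment or diet comparisons in edgeR or DESeq2, and 1 of them had an unadjusted p under 0.05 in chow C-3BO mice. Among both iron carriers, *Slc25a37* was higher in C-3BO mice on HFD (0.25) and with CL on chow (0.42), and *Slc25a28* was called in no treatment comparison. Without mice 4 and 5 of HFD C-3BO the *Slc25a37* difference on HFD was 0.19 and not called (edgeR adjusted p = 0.19). Of the carriers without a full description, *Slc25a22*, for glutamate, was higher in C-3BO mice on chow (0.68, SE 0.17, edgeR adjusted p = 0.00167) and HFD (0.48, SE 0.17, edgeR adjusted p = 0.0208), *Slc25a11*, for oxoglutarate and malate, was higher on chow (0.32), and *Slc25a29*, for basic amino acids, was lower on chow (-0.65). These were named after their values were seen. On HFD the *Slc25a22* groups overlapped, with control mouse 4 at 247 CPM within the C-3BO range of 222 to 260 CPM. Without mice 4 and 5 of HFD C-3BO its HFD difference was 0.46 and not called (edgeR adjusted p = 0.0726).

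Neighbouring gene lists were counted in the same way. Of 8 relatives outside the selection (*Ucp1*, *Ucp2*, *Ucp3*, *Mtch1*, *Mtch2*, *Slc25a17*, *Slc25a20* and *Slc25a44*), 6 were higher in C-3BO mice on chow and 6 on HFD, and 5 and 6 with CL. Of 80 tested subunits of the respiratory chain, 4 were higher and 10 lower in C-3BO mice on chow, but 44 higher and 1 lower on HFD, and with CL 33 higher and 1 lower on chow and 28 higher on HFD. Their median log2 fold change was -0.13 and 0.32 for C-3BO and 0.31 and 0.27 for CL. HFD lowered 54 of the 80 subunits in control mice, in which the 13 muscle markers were all lower as well, and the part of muscle in this was not tested. Of 17 other inner-membrane carriers, among them the pyruvate carrier and the calcium uniporter, 4 and 9 were higher in C-3BO mice and 9 and 8 with CL. Over all tested genes 15.8% and 19.3% were higher in C-3BO mice on chow and HFD, and 9.16% and 12.7% with CL. The shares of lower genes were 15.9% and 15.5% in C-3BO mice and 6.13% and 10.8% with CL. HFD lowered 17.5% of all tested genes in control mice. In edgeR 0 subunits were lower with CL on HFD. No test compared these lists with the SLC25 genes.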

How the data were processed

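BAT was taken from male mice, in the injected cohort on the day after the last injection. Per the labels and the study's methods, the authors made poly(A) libraries without strand marking, mapped reads with STAR to mm9 and deposited raw counts per gene (exon reads, with HOMER and iRNA-seq), with versions not given in the sources used here. From the deposited counts, edgeR 4.0.16 (R 4.3.3, limma 3.58.1) fitted 1 mean per group over all 40 libraries, with TMM factors and filterByExpr (minimum count 10), and tested each comparison by quasi-likelihood with Benjamini-Hochberg adjustment over 13277 of 20295 genes. The authors used DESeq2, which served here as an alternative (1.42.0). SE is the size of the log2 fold change over the square root of F. CPM used the library totals of 849126 to 15260516 counts after multiplying them by the TMM factors, with 3 counts as the lowest level shown. Single values were compared by exact permutation tests (two-sided), whose smallest p is 0.00794. The fit was tested on simulated data. The labels give replicates only as separate samples, 5 per group, so p-values measure the spread between these samples, and no pair of libraries of a group agreed within sampling noise (2.81 to 104 chi-square per degree of freedom). Deviations of same-numbered mice correlated at -0.376 to 0.444. At most 3 of 5 pairs were over 0.1, in C-3BO against control on chow (mean 0.172), so the numbers were not taken to pair mice.

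Genes were described in full where called in a treatment comparison with a log2 fold change of at least 1 in a comparison in which they were called, called in at least 3 of the 4 treatment comparisons, among the 5 highest per kilobase, or called for a difference between effects, which gave 19 genes, of which 1 is not reported here. The genes, lists and tests were chosen with earlier results of these data known. Alternatives were DESeq2, RLE factors, library totals alone, no low-count filter, at least 10 counts in every library, the libraries of each comparison alone, a replicate block, leaving out each library, leaving out mice 4 and 5 of HFD C-3BO, and a muscle score as a covariate, the last chosen after seeing the data.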

Additional observations from a re-analysis of the deposited data

Results flagged for a closer look

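Of 152 gene and group levels examined, 13 held a mouse whose gap to the nearest of the other 4, divided by the range of the group, was above 0.71, and chance gives this in about 1 in 20 groups. *Slc25a34* read 177 CPM in chow CL mouse 4 (others 6.91 to 45.3) and 413 CPM in HFD C-3BO mouse 2 (196 to 225). Chow CL mouse 5, which also had low *Ucp1*, read 278 CPM for *Slc25a39* (388 to 429) and 153 CPM for *Slc25a46* (180 to 187). HFD control mouse 4 read 315 CPM for *Slc25a1* (157 to 176) and 268 CPM for *Slc25a35* (187 to 208). Chow control mouse 3 read 357 CPM for *Slc25a5* (280 to 291), 10.1 CPM for *Slc25a48* (22.2 to 26.1) and 30.2 CPM for *Slc25a15* (26.7 to 27.7). The other 4 were 313 CPM for *Slc25a5* in chow C-3BO mouse 3 (227 to 248), 179 CPM for *Slc25a46* in chow control mouse 2 (159 to 164), 138 CPM for *Slc25a16* in HFD saline mouse 5 (87.2 to 95.4) and 94.6 CPM for *Slc25a32* in chow C-3BO mouse 5 (65.5 to 68.5).

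For 5 genes the effect itself differed by an interaction test in edgeR. The C-3BO effect on *Slc25a48* was lower on HFD than on chow, with a log2 difference of -1.47. Subtracting the CL effect on chow from that of C-3BO gave -0.57 for *Slc25a35*, -0.52 for *Slc25a4*, -0.55 for *Slc25a5* and 0.62 for *Slc25a51*. The calls of *Slc25a35* and *Slc25a4* were lost under 6 and 8 of 28 alternatives, that of *Slc25a51* under 1, and those of *Slc25a5* and *Slc25a48* under none of 28 and 29.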

How the results depend on the processing

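Of 52 calls of the fully described genes in treatment and interaction comparisons, 34 held under every alternative run, 18 were lost under at least 1, and 0 changed sign. With a replicate block the counts of called SLC25 genes did not change (12 higher and 5 lower for C-3BO on chow, 11 and 3 on HFD, 11 and 1 for CL on chow, 8 and 2 on HFD), and of these calls *Slc25a32* with CL on chow was lost. The replicate numbers were not taken to pair the mice, since in no comparison were all 5 correlations over 0.1.

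Library totals alone gave 11 lower genes for C-3BO on chow (main 5) and 7 on HFD (3), 6 higher for CL on chow (11), 4 lower for CL on HFD (2), 11 higher by diet in C-3BO (6), 9 higher and 3 lower in saline (1 and 5), 9 higher in CL mice (5), and 4 for the diet difference of the C-3BO effect (1). With the libraries of each comparison alone, 3 were lower for C-3BO on chow, 7 higher for CL on chow, 1 lower for CL on HFD, 4 higher by diet in control (7) and 8 in CL mice, and 1 differed between C-3BO and CL on HFD (0). Without a low-count filter 3 were lower for C-3BO on chow, 1 for CL on HFD, and 2 differed between C-3BO and CL on chow (4). With at least 10 counts in every library 3 were lower for C-3BO on chow and 2 had a diet difference of the C-3BO effect. DESeq2 gave 3 higher by diet in saline mice, 2 for the diet difference of the C-3BO effect and 1 between C-3BO and CL on HFD. With the muscle score 0 were lower for CL on chow. Without mice 4 and 5 of HFD C-3BO, 3 were higher by diet in C-3BO mice and 1 differed between C-3BO and CL on HFD. Except where fewer samples or genes entered, the cause was not tested.

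Leaving out each library in turn gave 11 to 12 higher and 3 to 6 lower for C-3BO on chow, 8 to 11 and 2 to 4 on HFD, 6 to 13 and 0 to 2 for CL on chow, and 8 to 10 and 1 to 3 on HFD. By diet it gave 3 to 6 and 7 to 8 in control, 3 to 6 and 4 to 6 in C-3BO, 1 to 3 and 2 to 6 in saline, and 3 to 6 and 5 to 8 in CL mice. The interactions ranged from 1 to 4 (C-3BO by diet), 0 to 0 (CL by diet), 2 to 6 (C-3BO against CL on chow) and 0 to 1 (on HFD). The lowest CL count on chow, 6, was without chow saline mouse 2. The lowest diet count in control mice, 3, was without HFD control mouse 4, without which the C-3BO diet difference rose to 4.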
